A study of Mus musculus with 12 samples.

Results

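The 37 genes of the mouse mitochondrial genome were taken from the count table as all rows whose symbol begins with mt-, out of 54833 genes in all. They are 13 mRNAs for subunits of the respiratory chain, 2 rRNAs and 22 tRNAs, and 31 of them (13 mRNAs, 2 rRNAs and 16 tRNAs) passed the filter on low counts together with 21464 other genes, 21495 in all. The symbols decided membership, but the set was chosen by the measured levels of mt-Nd4l as well, which moved in opposite directions after ICH at the 2 ages. For that reason mt-Nd4l is described without a test, and all tests and counts below concern the other 30 genes.

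The RNA came from caudate putamen (striatum) of male wild-type C57BL/6 mice 24 h after surgery. The 4 groups were young sham and young ICH (mice of 8 to 10 weeks) and aged sham and aged ICH (mice of 20 to 22 months), with 3 samples in each. Intracerebral hemorrhage (ICH) was produced by an injection of type IV collagenase, an enzyme that opens small vessels, so that the hematoma forms without an injection of blood, and sham mice had the operation without the enzyme. Every sample pooled tissue around the hematoma, or the matching tissue of sham mice, from several animals, and the error of each group is therefore that between pools.

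The mitochondrial genome is a small circle that is present in many copies per cell and is transcribed from both strands as long precursors, which are cut at the tRNAs into separate mRNAs, rRNAs and tRNAs. Its mRNAs encode core subunits of complexes I, III and IV of the respiratory chain and of the ATP synthase, while all other subunits, the polymerase and the factors that process and translate these RNAs come from nuclear genes. Stretches of mitochondrial sequence have also been copied into the nuclear genome over time, where they are annotated as pseudogenes.

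Counted reads ranged from 28410896 to 37785160 per sample. Markers of striatal neurons were present in every sample, with a summed level of 248.8 to 2154 CPM (counts per 1000000 of the TMM-normalized library size). Summed markers of neurons in general were at 6283 to 7680 CPM in the sham samples and 4635 to 6150 CPM in the ICH samples, and those of neutrophils at 21.95 to 65.19 CPM and 143.3 to 327.7 CPM. Choroid plexus markers summed to 4063 CPM in young ICH 3, 1553 CPM in aged ICH 1 and 1965 CPM in aged ICH 2, against 9.919 to 488.5 CPM in the other 9 samples. In bulk tissue, fewer cells of a type and less RNA per cell cannot be told apart.

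A stretch of the mitochondrial genome has annotated nuclear copies that are nearly exact where they align, and this bears on the counts of the genes inside it. By comparison of annotated transcripts (GENCODE vM21, build GRCm38), 7 pseudogenes in a row on the minus strand at chr1:24611535-24616197 carry the sequence of MT:6390-11042, a span of 4653 bases. Of the pairs, 5 had no mismatch over the aligned part: mt-Co2 and Gm28661, mt-Atp6 and Gm10925, mt-Co3 and Gm28437, mt-Nd4l and Gm10222, and the first 63.6% of mt-Nd4 with Gm28439. The other 2 had 1 mismatch each, T3C between mt-Nd3 and Gm28438 and A1066T between mt-Co1 and Gm29216 (the mitochondrial base first, then the position counted from 1 at the 5′ end of the mitochondrial gene, then the base of the copy). The sequences of mt-Nd4l and its copy are shown whole because mt-Nd4l is the gene that moved in opposite directions. Capitals mark the end of mt-Nd4l that is also the start of mt-Nd4 (7 bases) and the part of it that the copy holds (4 bases). For mt-Nd3 and its copy the first 23 bases are shown, with the single mismatch in capitals.
mt-Nd4l: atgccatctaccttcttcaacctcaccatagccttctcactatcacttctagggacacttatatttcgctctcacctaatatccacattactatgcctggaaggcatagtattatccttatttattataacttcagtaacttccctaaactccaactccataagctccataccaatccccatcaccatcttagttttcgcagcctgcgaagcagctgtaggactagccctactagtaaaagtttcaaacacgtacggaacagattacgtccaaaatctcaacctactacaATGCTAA
Gm10222: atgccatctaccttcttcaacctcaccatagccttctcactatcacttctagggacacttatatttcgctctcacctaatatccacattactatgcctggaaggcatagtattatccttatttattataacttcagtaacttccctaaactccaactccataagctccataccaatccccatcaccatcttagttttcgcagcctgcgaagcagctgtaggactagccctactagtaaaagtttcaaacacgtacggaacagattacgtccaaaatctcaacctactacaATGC
mt-Nd3: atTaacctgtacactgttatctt
Gm28438: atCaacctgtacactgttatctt
A read from the inside of such a pair matches both places equally well. No source used here states how reads with several matches were counted, so the counts of these genes and of their copies are uncertain to that extent.

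Levels per length followed the copied stretch. The 6 mRNAs that lie wholly inside it (mt-Co2, mt-Atp8, mt-Atp6, mt-Co3, mt-Nd3 and mt-Nd4l) had median FPKM (fragments per kilobase of transcript, scaled by the authors to the mapped fragments of a sample) of 16.72 to 232.6. The 5 mRNAs outside it (mt-Nd1, mt-Nd2, mt-Nd5, mt-Nd6 and mt-Cytb) had medians of 3213 to 7194 FPKM, and mt-Co1 and mt-Nd4, which lie partly inside, had 13373 and 3087 FPKM. No sample of any gene inside the stretch, with at most 529.8 FPKM, reached the lowest value outside it, 2242 FPKM. The rRNAs mt-Rnr1 and mt-Rnr2 had medians of 4047 and 4543 FPKM, and the tRNAs that passed the filter ranged from 0.9371 to 1299 FPKM. The spread between samples of a group was also larger inside the stretch. The standard deviation of log2 CPM within groups was 0.078 to 0.134 for the 7 mRNAs outside or partly inside, and 0.224 to 0.467 for the 6 inside. In the order of median levels mt-Co1 stood first and mt-Cytb and mt-Nd1 next, at 7194 and 7072 FPKM, with ranges that overlapped. All genes wholly inside the stretch together held 0.8266% to 1.002% of the mitochondrial counts. Sums over the genome therefore rest on the genes outside it and on mt-Co1 and mt-Nd4, which lie partly inside.

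**Figure D1:**
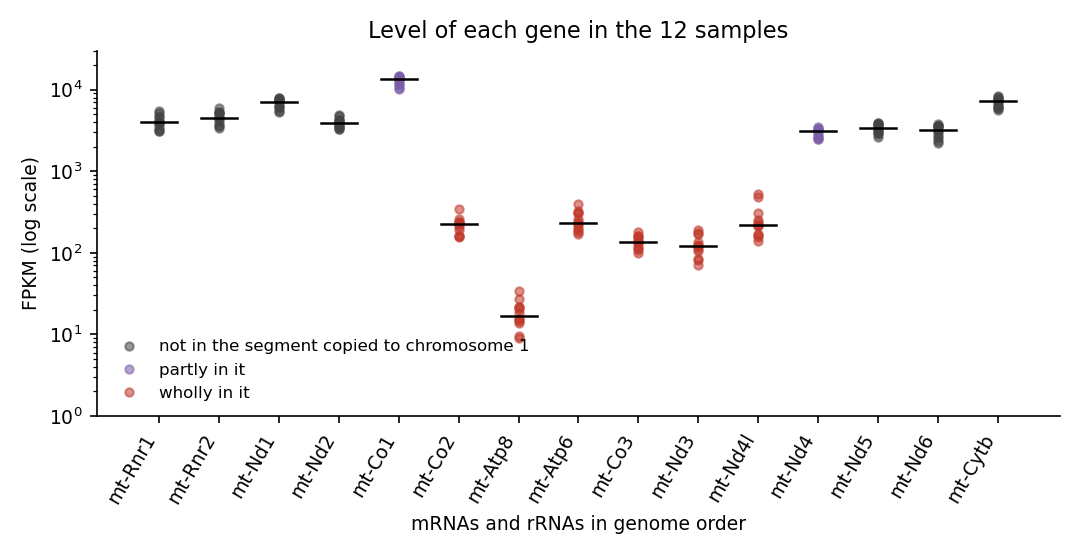
Deposited FPKM (log axis) of the 13 mRNAs and 2 rRNAs in genome order, 1 point per sample and a black line at the median of the 12 samples, coloured by position relative to the stretch with a nuclear copy on chromosome 1. The 6 genes wholly inside it lie between 9.041 and 529.8 FPKM, and all others above 2242 FPKM.

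The mitochondrial share of all counts was higher in the ICH samples than in the sham samples at both ages. It was 5.52%, 5.08% and 4.92% in the young sham samples and 6.35%, 6.80% and 7.16% in the young ICH samples. At the older age it was 5.49%, 6.27% and 6.01% in the sham samples and 7.27%, 7.06% and 6.93% in the ICH samples. Neither pair of groups overlapped, while aged sham 1 lay within the range of the young sham samples. The mean log2 share differed by 0.39 between young ICH and young sham, by 0.26 between aged ICH and aged sham and by 0.20 between aged sham and young sham (no test, since the sum is over a set chosen with results known). As a share of FPKM the differences were 0.28, 0.16 and 0.17. Young ICH 1, young ICH 2 and aged ICH 3, with 52.82, 9.919 and 40.28 CPM of choroid plexus markers, had shares of 6.35%, 6.80% and 6.93%. Young ICH 3, aged ICH 1 and aged ICH 2, with 4063, 1553 and 1965 CPM, had shares of 7.16%, 7.27% and 7.06%. Summed endothelial markers were at 215.8 to 265.7 CPM in young sham and 328.8 to 366.4 CPM in young ICH samples. In aged sham samples they were at 249.4 to 294.4 CPM and in aged ICH samples at 308.3 to 378.4 CPM. Oligodendrocyte markers overlapped in the young groups, with 4712 to 8062 CPM in sham and 5522 to 7183 CPM in ICH samples. They were at 5159 to 6733 CPM in aged sham and 4131 to 4813 CPM in aged ICH samples. The part of choroid plexus, neuronal, leukocyte, endothelial and oligodendrocyte markers in the share was not tested. Within the mitochondrial counts, mt-Co1 alone held 30.6% to 33.1%, the rRNAs 15.96% to 20.4% and the tRNAs 0.21% to 0.261%.

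**Figure D2:**
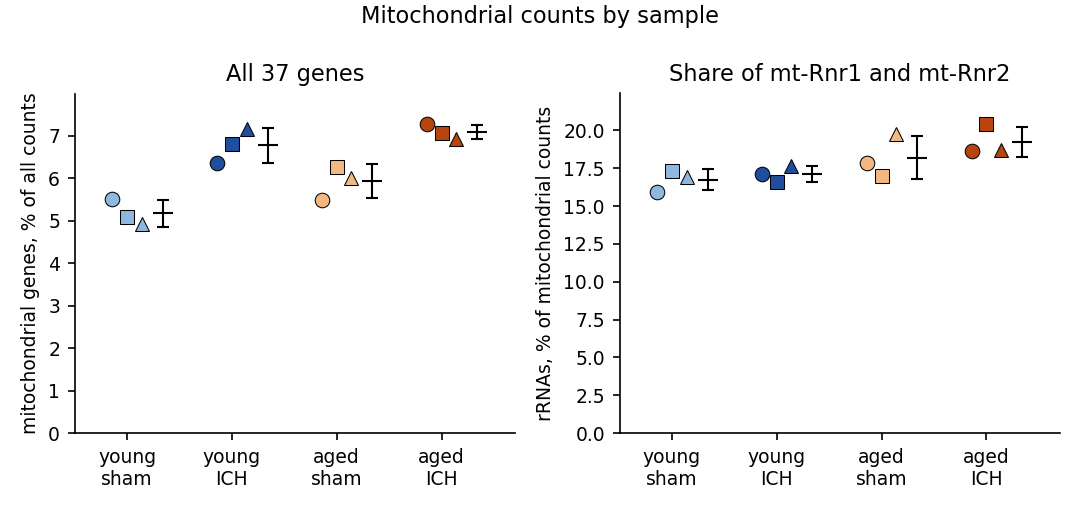
Left, counts on all 37 mitochondrial genes as a percent of all counts, and right, counts on mt-Rnr1 and mt-Rnr2 as a percent of the mitochondrial counts, for each sample (circle, square and triangle are samples 1, 2 and 3 of a group, which have no order) with mean ± SD beside them. The 6 ICH samples lie between 6.35% and 7.27% on the left, and the 6 sham samples between 4.92% and 6.27%.

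Young ICH against young sham asks what the hemorrhage changed at the younger age, and here 6 of the 30 tested genes rose at an adjusted P below 0.05 in edgeR's quasi-likelihood test: mt-Nd6, mt-Rnr1, mt-Tp, mt-Nd1, mt-Atp6 and mt-Rnr2. None fell at that level. That is 20% of the 30, whereas 9.89% of all 21495 genes rose by the same criterion and 19.1% changed in either direction. By the criterion of the study for a differentially expressed gene (FC > 1.5 or < 0.67 with an unadjusted P below 0.05), 2 genes were called, mt-Atp6 and mt-Atp8, both higher, which is 6.67% of the 30, against 8.66% of all genes called higher and 12.2% called in either direction. The median log2FC of the 30 was 0.29, against 0.02 over all genes, and all 12 mRNAs had a positive log2FC. In 16 of the 30 every ICH sample lay above every sham sample, which was so for 18.5% of all genes. These genes share 1 genome and its precursors, so their values are not independent of each other. The count depended on the samples: it was 1 without young sham 2 and without young sham 3, 2 without young ICH 3 and 3 without young ICH 2, and mt-Nd6 was among the genes in each of these cases. DESeq2 gave 13 in place of 6, adding mt-Nd2, mt-Nd4, mt-Cytb, mt-Co1, mt-Co2, mt-Tc and mt-Tn.

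Among the complex I subunits, the clearest change was in mt-Nd6, the only mRNA read from the other strand than the remaining 12. It had 1399, 1221 and 1261 CPM in the young sham samples and 1811, 1834 and 1888 CPM in the young ICH samples, with a wide gap between the groups. Its log2FC was 0.51 ± 0.08 (SE) with an adjusted P of 0.0025. The aged sham samples stood at 1419, 1636 and 1530 CPM and the aged ICH samples at 1801, 1783 and 1672 CPM, again without overlap, but the log2FC of 0.20 ± 0.08 did not pass in edgeR (adjusted P = 0.126), whereas it did in DESeq2. The share of mt-Nd6 in the mitochondrial counts was 2.29% to 2.47% in young sham, 2.71% to 2.89% in young ICH, 2.52% to 2.56% in aged sham and 2.49% to 2.63% in aged ICH. The young ICH samples thus lay above the other 9. The test of the difference between the responses at the 2 ages gave −0.31 ± 0.11 (unadjusted P = 0.0166, adjusted P = 1). The last 14 bases of mt-Nd5 overlap mt-Nd6 on the opposite strand, and whether counting used the strand is not given. If it did not, RNA of the opposite strand anywhere along mt-Nd6 was counted as mt-Nd6. The part of such RNA was not tested.

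The other subunits of complex I outside the copied stretch moved less. For mt-Nd1, whose protein lies in the membrane arm next to the quinone site, CPM was 6163, 5351 and 5391 in young sham and 6915, 7047 and 7239 in young ICH, with a log2FC of 0.33 ± 0.09 (adjusted P = 0.0293). In the aged groups it was 5865, 6630 and 6025 CPM after sham surgery and 7282, 7117 and 6893 CPM after ICH, which do not overlap, with a log2FC of 0.20 ± 0.09 (adjusted P = 0.171). The membrane arm subunits mt-Nd2, mt-Nd4 and mt-Nd5 had log2FC of 0.29, 0.26 and 0.23 in young and 0.20, 0.20 and 0.14 in aged mice, with standard errors of 0.09 to 0.12. None of the 3 reached an adjusted P below 0.05 in edgeR (0.0516, 0.0616 and 0.19 in young, 0.184, 0.161 and 0.48 in aged mice), while in DESeq2 mt-Nd2 and mt-Nd4 did in young and mt-Nd1 and mt-Nd4 in aged mice.

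For complex III, mt-Cytb, which encodes cytochrome b, had 7724, 7071 and 6727 CPM in young sham and 8198, 8830 and 9218 CPM in young ICH. The groups did not overlap, and the log2FC was 0.29 ± 0.10 (adjusted P = 0.0663). In aged mice it went from 7056, 8280 and 7270 CPM to 8999, 8489 and 8508 CPM, also without overlap, with a log2FC of 0.20 ± 0.10 (adjusted P = 0.208). For complex IV, mt-Co1, the catalytic subunit of cytochrome c oxidase and the most abundant mRNA, had 18439, 17200 and 16381 CPM in young sham and 20237, 22193 and 21309 CPM in young ICH. The log2FC was 0.29 ± 0.11 (adjusted P = 0.0728), and in aged mice, where the ranges overlapped, 0.13 ± 0.11 (adjusted P = 0.435).

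The remaining mRNAs lie inside the copied stretch and were noisier. The gene mt-Co2, whose protein takes up electrons from cytochrome c, had 146.8, 113.7 and 114.2 CPM in young sham and 157.8, 237.4 and 149.3 CPM in young ICH, with a log2FC of 0.54 ± 0.18 (adjusted P = 0.0583) and its highest value in young ICH 2. For mt-Co3 the log2FC was 0.34 ± 0.16 in young and 0.01 ± 0.16 in aged mice, neither of which passed (adjusted P = 0.157 and 0.986). The ATP synthase gene mt-Atp6 had 127.4, 122.9 and 135.0 CPM in young sham and 158.0, 208.6 and 214.0 CPM in young ICH, a log2FC of 0.59 ± 0.18 (adjusted P = 0.0397). With DESeq2 the fold of mt-Atp6 fell just short of 1.5 (log2FC 0.58), as it also did with size factors in place of TMM. The short mt-Atp8, which shares 43 bases with mt-Atp6, had only 61 to 143 counts in the young samples, and its log2FC of 0.77 ± 0.33 passed by the unadjusted P of 0.0392 (adjusted P = 0.127). The 2 calls depended on single samples: leaving out young sham 2 left 0 calls, leaving out young sham 3 left 1 (mt-Atp6), and leaving out young sham 1 gave 6. Without young ICH 2 neither gene was called, but mt-Nd3 and mt-Ty were, and mt-Atp8 was also lost without young ICH 1 and mt-Atp6 without young ICH 3. In aged mice the edgeR log2FC was 0.225 for mt-Co2 (adjusted P = 0.45) and 0.39 for mt-Atp6 (adjusted P = 0.178). The test of the difference between the ages gave −0.31 and −0.21 (unadjusted P = 0.244 and 0.432). For mt-Atp8 the aged groups overlapped, at 2.84 to 5.70 CPM after sham surgery and 3.02 to 6.77 CPM after ICH.

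Both rRNAs of the mitochondrial ribosome rose in young mice in edgeR, but mt-Rnr1 lost the adjusted P in 6 and mt-Rnr2 in 12 of 20 alternatives, among them leaving out any 1 of the young sham samples. In young sham samples mt-Rnr1, the small subunit rRNA, had 3138, 3277 and 3089 CPM, and in young ICH samples 3723, 3971 and 4215 CPM, a log2FC of 0.33 ± 0.09 (adjusted P = 0.0239). It also rose in aged mice, from 3526, 3743 and 3954 CPM to 5041, 4778 and 4435 CPM, by 0.34 ± 0.09 (adjusted P = 0.0249). For the large subunit rRNA, mt-Rnr2, the log2FC was 0.34 ± 0.10 in young (adjusted P = 0.041) and 0.23 ± 0.10 in aged mice (adjusted P = 0.172). The ICH samples lay above the sham samples for both rRNAs at both ages.

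Aged ICH against aged sham asks the same at the older age, where fewer genes passed. At an adjusted P below 0.05, 2 of the 30 rose (mt-Rnr1 and the tRNA gene mt-Tn, log2FC 0.30 ± 0.09, adjusted P = 0.0378) and none fell, which is 6.67%, against 7% of all genes that rose. DESeq2 gave 5, adding mt-Nd1, mt-Nd4 and mt-Nd6, and mt-Tn was lost in 8 of 20 alternatives. Without aged sham 1, aged sham 2 or aged ICH 1, no gene reached that level. By the FC criterion 1 was called, the tRNA gene mt-Ta, or 3.33%, against 7.24% of all genes called higher and 10.1% in either direction. The median log2FC of the 30 was 0.21, against 0.00 over all genes, and all 12 mRNAs were again positive, between 0.01 and 0.39. No overlap, with the ICH samples higher, was seen for 9 of the 30, against 17.8% of all genes. The responses at the 2 ages were not shown to differ: in the test of the difference 1 of the 30 was called (mt-Ty, lower), 3.33%, against 1.08% of all genes called lower and 1.56% in either direction. The median was −0.09, and each of the 30 had an adjusted P of 1 in edgeR, as no gene in the whole table passed (0%), and 0 of the 30 passed in DESeq2. At an unadjusted P below 0.05 there were 3, mt-Nd6, mt-Tc and mt-Ty, all with a smaller log2FC in aged mice, against 2.82% of all genes. All 12 mRNAs had a smaller log2FC in aged than in young mice, with a median difference of −0.18, while 12 of the 16 tRNAs had a larger one. The 2 comparisons with sham have no samples in common, but each shares samples with the comparisons between ages.

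**Figure D3:**
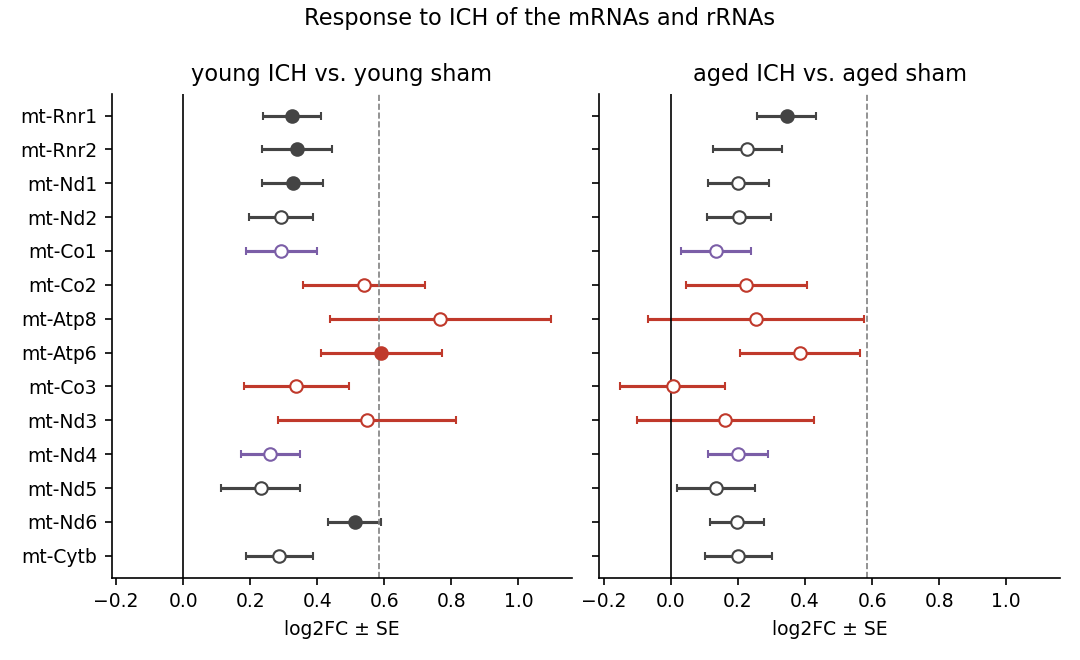
log2FC ± SE from edgeR for the 12 mRNAs tested and the 2 rRNAs in genome order, young ICH vs. young sham (left) and aged ICH vs. aged sham (right), with filled points for an adjusted P below 0.05, red for genes wholly and purple for genes partly inside the copied stretch, and a dashed line at FC 1.5. All 14 values are above 0 at both ages, from 0.23 to 0.77 in young and from 0.01 to 0.39 in aged mice.

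The gene mt-Nd4l (ENSMUSG00000065947, MT:9877-10173, plus strand) encodes a small membrane subunit of complex I and is translated from the same transcript as mt-Nd4. Its values were those that led to its choice, and they are described here without a test. It had 164.3, 96.5 and 74.5 CPM in the young sham samples, 40.9, 63.5 and 47.9 CPM in the young ICH samples, 51.1, 46.9 and 65.6 CPM in the aged sham samples and 72.2, 137.9 and 62.6 CPM in the aged ICH samples. All young sham samples lay above all young ICH samples and all aged sham samples, a separation in that direction that 16.5% and 11.2% of all genes also had. In aged mice the groups overlapped, since aged ICH 3 was below aged sham 3. The difference of the mean log2 CPM was −1.08 for young ICH against young sham and 0.66 for aged ICH against aged sham. Without aged ICH 2 the latter was 0.32, and without young sham 1 the former was −0.77. The largest value of the 12, young sham 1, and the next, aged ICH 2, came from samples whose mt-Nd4 was not set apart, with 3976 and 4393 CPM in a range of 3567 to 4705 CPM.

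As a percent of the counts on mt-Nd4, mt-Nd4l stood at 4.131%, 2.652% and 2.067% in young sham, 0.9482%, 1.434% and 1.019% in young ICH, 1.434%, 1.116% and 1.778% in aged sham and 1.598%, 3.139% and 1.467% in aged ICH. The ratio of these 2 neighbours thus ran from 0.9482% to 4.131%. With this ratio the differences were −1.34 in young and 0.46 in aged mice, and with FPKM they were −0.99 and 0.73. All 12 other mRNAs were on the opposite side of 0 from mt-Nd4l in young mice.

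The nuclear copy Gm10222 was counted too. Its counts were 759, 676 and 375 in young sham, 600, 1442 and 919 in young ICH, 623, 793 and 630 in aged sham and 755, 1492 and 970 in aged ICH. It held 11.3% to 43.0% of the counts of the pair, with a median of 27.8%. Summing the pair left the spread within groups as it was, with a standard deviation of log2 CPM of 0.470 for the sum and 0.467 for mt-Nd4l alone. The summed level was 185.2, 118.0 and 86.9 CPM in young sham and 58.3, 111.5 and 76.9 CPM in young ICH, and these groups overlap, unlike those of mt-Nd4l alone. In the aged groups it was 71.8, 73.6 and 84.5 CPM after sham surgery and 93.2, 188.4 and 93.0 CPM after ICH, which do not overlap, whereas those of mt-Nd4l alone do. The difference of the mean log2 level of the sum, a choice made after seeing the data, was −0.64 in young and 0.62 in aged mice, in place of −1.08 and 0.66. The part of reads assigned to the copy in the values of mt-Nd4l was not tested.

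For mt-Nd3, the other small complex I subunit inside the stretch, the picture was different. It had 37.8, 30.8 and 25.9 CPM in young sham, 58.4, 38.6 and 41.2 CPM in young ICH, 44.0, 48.0 and 41.7 CPM in aged sham and 63.7, 58.3 and 27.6 CPM in aged ICH. The low sample, aged ICH 3, had 879 counts on mt-Nd3 and 1118 on its copy Gm28438, while the other 11 samples had 174 to 371 counts on the copy. Here the sum of the pair was steadier, with a standard deviation within groups of 0.203 against 0.396. The summed levels were 74.0, 67.6 and 62.7 CPM in aged ICH against 52.1, 58.3 and 50.2 CPM in aged sham, now without overlap. For mt-Nd3 alone the log2FC was 0.55 ± 0.27 in young mice (adjusted P = 0.172) and 0.16 ± 0.26 in aged mice (adjusted P = 0.728). With the pair summed, a choice made after seeing the data, it was 0.51 (adjusted P = 0.0327) and 0.35 (adjusted P = 0.136). The tRNA genes on either side of mt-Nd3 were also low in aged ICH 3, with 13 counts on mt-Tg and 10 on mt-Tr, against 38 to 44 in the other aged ICH samples. Some tRNA genes outside the stretch were low there too, such as mt-Tq (10 against 32 and 27) and mt-Th (53 against 167 and 145). Others were not, such as mt-Tn (1470 against 1671 and 1434) and mt-Tp (2655 against 3016 and 2186). Whether the base at the mismatch differed in that library cannot be read from counts.

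**Figure D4:**
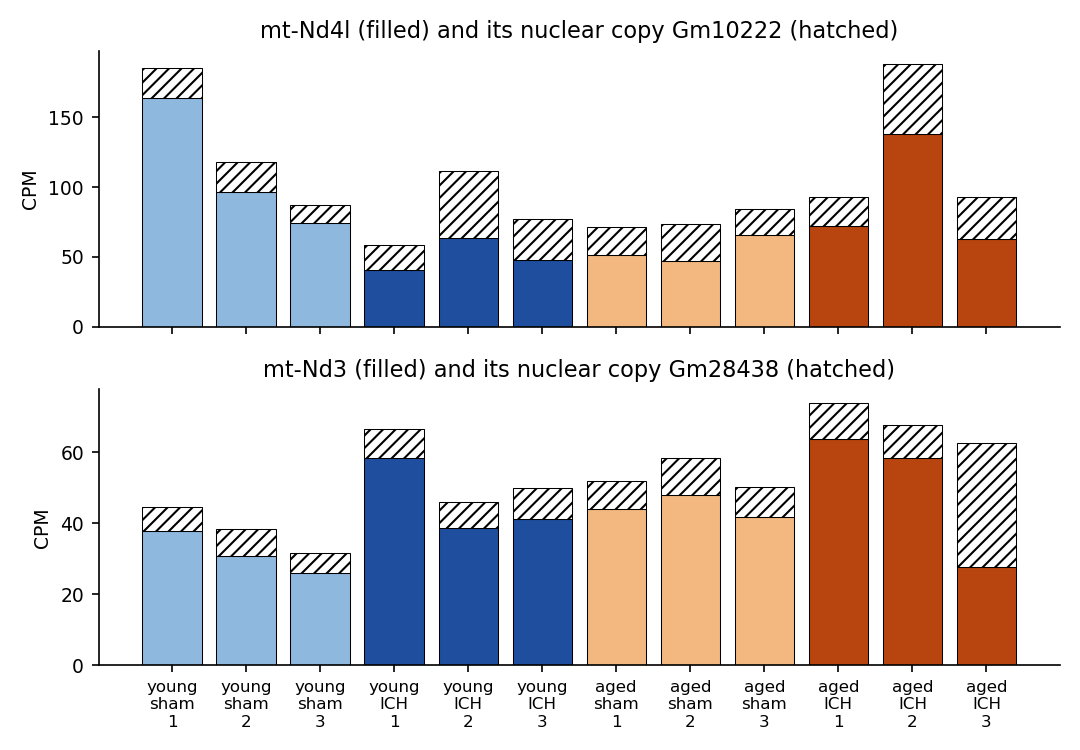
CPM of mt-Nd4l and Gm10222 (top) and of mt-Nd3 and Gm28438 (bottom) in each of the 12 samples, stacked, with the mitochondrial gene filled by group colour and the nuclear copy hatched. In aged ICH 3 the copy holds 55.98% of the mt-Nd3 pair, against 12.1% to 19.6% in the other samples.

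The same sum was made for the other pairs. The copies held a median of 52.0% of the pair for mt-Atp6, 41.1% for mt-Co3 and 37.5% for mt-Co2, but 1.48% for mt-Nd4 and 0.215% for mt-Co1, so that the latter 2 hardly moved. After summing, the log2FC in young mice was 0.51 for mt-Co2 (adjusted P = 0.0257) and 0.48 for mt-Atp6 (adjusted P = 0.0313), which no longer met the FC criterion. Of the 11 nuclear copies with at least 95% identity, the remaining 4 lie elsewhere, and among these Gm13340 (a full-length copy of mt-Co1 on chromosome 2 with 97.6% identity) had 496 to 1013 counts, beside 496436 to 792431 on mt-Co1.

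The tRNA genes had few counts. The RNA was turned into libraries of fragments longer than a tRNA, and whether counts on these genes came from tRNAs, from uncut precursors or from neighbouring genes was not tested. Of the 22, mt-Tf had no count in any sample, mt-Ts1, mt-Td and mt-Tk had at most 1 per sample, and mt-Tv and mt-Tt had 2 to 13, so 6 could not be tested. The 16 tested had log2FC of −0.53 to 0.56 after ICH in young mice, with a median of 0.11, and −0.18 to 1.22 in aged mice, with a median of 0.26. The most abundant, mt-Tp (proline), rose in young mice from 64.1, 58.3 and 43.1 CPM to 69.2, 80.9 and 78.5 CPM, by 0.46 ± 0.13 (adjusted P = 0.0269).

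In total, 4 tRNA genes were called in some comparison by the FC criterion, none with an adjusted P below 0.05 in edgeR. Their sequences are shown with the anticodon in capitals, since it names the amino acid that each carries.
mt-Ty: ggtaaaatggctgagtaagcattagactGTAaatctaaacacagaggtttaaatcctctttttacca
mt-Tl2: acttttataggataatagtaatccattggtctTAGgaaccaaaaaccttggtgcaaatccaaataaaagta
mt-Th: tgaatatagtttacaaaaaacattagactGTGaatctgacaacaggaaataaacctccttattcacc
mt-Ta: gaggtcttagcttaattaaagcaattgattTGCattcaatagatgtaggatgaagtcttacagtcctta
These are the tRNAs for tyrosine, leucine, histidine and alanine. The sequences are those of the annotated transcripts (GENCODE vM21, GRCm38), at MT:5260-5326 (minus strand), MT:11671-11741, MT:11546-11612 (both plus strand) and MT:5018-5086 (minus strand).

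Aged sham against young sham asks what age alone changed, and 2 of the 30 were called, mt-Ty and mt-Tl2, both higher, which is 6.67%, against 2.82% of all genes called higher and 3.72% in either direction. None had an adjusted P below 0.05 in edgeR, DESeq2 or limma on FPKM, a criterion that 0.102% of all genes met in edgeR, and 7 had an unadjusted P below 0.05, all higher, against 6.56% of all genes. The counts of mt-Ty were 82, 69 and 64 in young sham and 100, 103 and 107 in aged sham, without overlap, with a log2FC of 0.60 ± 0.20 (unadjusted P = 0.00993, adjusted P = 0.266). For mt-Tl2 the counts were 61, 77 and 40 in young sham and 88, 88 and 84 in aged sham, with a log2FC of 0.62 ± 0.27 (unadjusted P = 0.0429, adjusted P = 0.388). Leaving out young sham 3 or aged sham 2 left no call, and mt-Tl2 was also lost without young sham 1, aged sham 1 or aged ICH 2. With DESeq2, limma on FPKM or only the groups compared, the mRNA mt-Atp8 was called higher besides mt-Ty and mt-Tl2. The median log2FC of the 30 was 0.18, against 0.01 over all genes, and 26 of 30 were positive. In 7 of them all aged samples lay above all young samples, against 9.81% of all genes. Among these 7 were both rRNAs, with log2FC of 0.24 ± 0.09 for mt-Rnr1 and 0.30 ± 0.10 for mt-Rnr2 (adjusted P = 0.305 and 0.295).

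After ICH, mt-Ty had 122, 86 and 104 counts in the young samples and 72, 102 and 108 in the aged samples. So young ICH lay above young sham in CPM, while aged ICH 1 lay below all aged sham samples and the other 2 aged ICH samples within their range. The log2FC was 0.56 ± 0.20 in young (adjusted P = 0.067) and −0.18 ± 0.19 in aged mice (adjusted P = 0.588), and the test of the difference gave −0.74 ± 0.28 (unadjusted P = 0.0206, adjusted P = 1), a call that was lost without aged ICH 1. For mt-Ta, which had 2 to 15 counts per sample, the log2FC in aged mice was 1.22 ± 0.46 (unadjusted P = 0.0207, adjusted P = 0.101), from 2, 6 and 7 counts to 15, 12 and 10. At such counts 1 sample decides the call: it was lost without aged sham 1 and without aged ICH 1, and in DESeq2.

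Aged ICH against young ICH asks how the ages differ after the hemorrhage, and 2 of the 30 were called higher in aged mice, mt-Tl2 and mt-Th, or 6.67%, against 2.21% of all genes called higher and 3.52% in either direction. None had an adjusted P below 0.05 in edgeR (0.0558% of all genes did), though mt-Tl2 and mt-Rnr1 did in DESeq2, and 4 had an unadjusted P below 0.05, all higher, against 4.68% of all genes. The call of mt-Th was lost without young ICH 1, young ICH 3, aged ICH 1 or aged ICH 2. The counts of mt-Tl2 were 45, 64 and 70 in young ICH and 165, 122 and 88 in aged ICH, without overlap, with a log2FC of 1.03 ± 0.27 (unadjusted P = 0.00267, adjusted P = 0.247). For its neighbour mt-Th the counts were 59, 69 and 58 in young ICH and 167, 145 and 53 in aged ICH, with a log2FC of 0.95 ± 0.37 (unadjusted P = 0.0261, adjusted P = 0.457), where aged ICH 3 was the lowest of the 6 in CPM. The 2 high aged samples were those with 1553 and 1965 CPM of choroid plexus markers. Young ICH 3, with 4063 CPM of these markers, had 2.21 CPM of mt-Tl2, against 1.31 and 2.13 CPM in young ICH 1 and 2. For mt-Th it had 1.83 CPM, against 1.71 and 2.30 CPM. The part of that tissue was not tested. The mRNAs were at like levels in both ICH groups, with log2FC of −0.19 to 0.21 and a median of 0.00. In 4 of the 30 all aged ICH samples lay above all young ICH samples, against 6.9% of all genes, and both rRNAs were among them, with log2FC of 0.26 ± 0.09 and 0.18 ± 0.10 (adjusted P = 0.384 and 0.621).

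**Figure D5:**
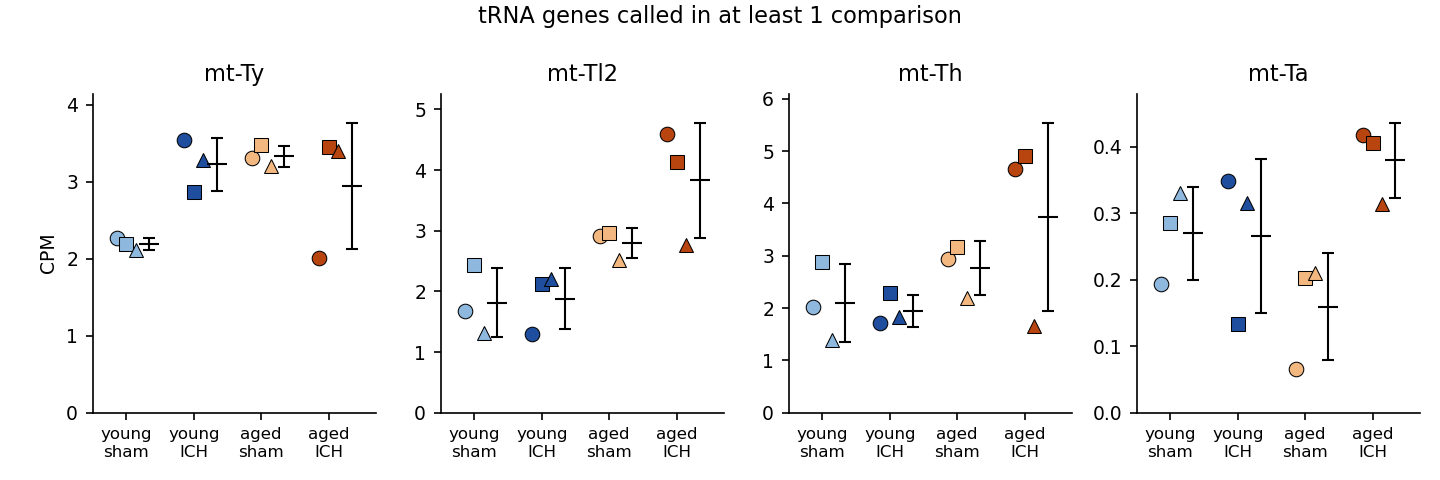
CPM of mt-Ty, mt-Tl2, mt-Th and mt-Ta in each sample (circle, square and triangle are samples 1, 2 and 3 of a group) with mean ± SD beside them. Aged ICH 1 and aged ICH 2 are the highest samples for mt-Tl2, mt-Th and mt-Ta, while aged ICH 1 is the lowest for mt-Ty.

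Of the nuclear genes for the same complexes, few changed after ICH. Among 36 nuclear subunits of complex I and 34 of complexes III, IV and V, 0 were called by the FC criterion after ICH at either age, both in edgeR and in DESeq2, while 12 of the 70 in young and 13 in aged mice had an unadjusted P below 0.05, against 33.2% and 28.9% of all genes. Their median log2FC was −0.03 and −0.02 in young and 0.03 and 0.02 in aged mice, beside 0.33 and 0.20 for the 12 mitochondrial mRNAs. At an adjusted P below 0.05, 4 of the 70 fell in young mice (against 9.23% of all genes), namely the complex I subunits Ndufa9 and Ndufa12, the complex III core protein gene Uqcrc2 and the ATP synthase gene Atp5a1, by 0.23 to 0.52 on the log2 scale. Only Uqcrc2 fell in aged mice (against 6.15% of all genes), and none of the 70 rose. All 6 lists of nuclear genes, described here and below, held 17, 30, 13, 13, 36 and 34 tested genes. Together, 7 of these genes fell at that level in young mice (against 9.23% of all genes). That number was 0 with only the groups compared, with limma on FPKM and without young ICH 3. It was 1 without young sham 3, 19 without young ICH 1 and 16 in DESeq2. Another 5 rose in young mice (against 9.89% of all genes), but 1 without young sham 1 or young sham 2, and 9 with limma on FPKM. In aged mice 5 fell (against 6.15% of all genes) and 4 rose (against 7%). Leaving out aged sham 2, aged ICH 1 or aged ICH 3 left 1 that fell and 0 that rose. Between aged sham and young sham, 65 of these 70 genes had a negative log2FC, with medians of −0.12 and −0.11, whereas the 12 mitochondrial mRNAs were all positive with a median of 0.16. Of the 70, 1 was called there, Ndufa12, lower (−0.61 ± 0.16, adjusted P = 0.202), against 0.898% of all genes. In 28 of the 70 all aged sham samples lay below all young sham samples, against 11.2% of all genes. In 1 they lay above, against 9.81%. None of the 70 had an adjusted P below 0.05 in edgeR there, against 0.102% of all genes. Ndufa9, Ndufa12, Uqcrc2 and Atp5a1 are named after their values were seen, since none had both the FC and the adjusted P in 1 comparison.

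Of the factors that copy and transcribe the mitochondrial genome, 17 were tested and 0 were called by the FC criterion in any comparison by edgeR or DESeq2, with 1 in young and 2 in aged mice at an unadjusted P below 0.05 after ICH, against 33.2% and 28.9% of all genes. Polrmt, the mitochondrial RNA polymerase, had a log2FC of 0.03 ± 0.07 in young and −0.05 ± 0.07 in aged mice after ICH (adjusted P = 0.804 and 0.706). Tfam, which packs this genome and starts its transcription, had −0.10 ± 0.08 and −0.17 ± 0.08 (adjusted P = 0.418 and 0.199). Ssbp1, which binds single-stranded mitochondrial DNA, rose in young mice by 0.27 ± 0.08 (adjusted P = 0.0395). In aged mice it was also higher after ICH at an unadjusted P below 0.05 in edgeR, but not at an adjusted P below 0.05. None of the 30 genes of RNA processing and stability was called by the FC criterion either, by edgeR or DESeq2, against 12.2% of all genes in young and 10.1% in aged mice, with 10 and 8 at an unadjusted P below 0.05, against 33.2% and 28.9% of all genes. Lrpprc, which keeps mitochondrial mRNAs stable, had −0.17 ± 0.06 in young mice (adjusted P = 0.0538) and fell by 0.20 ± 0.06 in aged mice (adjusted P = 0.0383). Pnpt1, a subunit of the complex that degrades RNA in mitochondria, rose at both ages, by 0.40 ± 0.11 in young (adjusted P = 0.0308) and 0.45 ± 0.11 in aged mice (adjusted P = 0.0237). In this list 3 rose and 1 fell at an adjusted P below 0.05 in young mice, against 9.89% and 9.23% of all genes. In aged mice 2 rose and 1 fell, against 7% and 6.15%. Rises over all lists depended on the samples, as given above. Of the 13 translation factors 0 were called by either tool, with 0 in young and 4 in aged mice at an unadjusted P below 0.05, against the same 33.2% and 28.9%, and 1 passed the adjusted P in aged mice, Taco1, an activator of mt-Co1 translation, which fell by 0.57 ± 0.10 (adjusted P = 0.00641). Ssbp1, Pnpt1 and Taco1 are named after their values were seen.

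Regulators of mitochondrial biogenesis moved in both directions. Of 13 tested, Nfe2l2, the transcription factor Nrf2 of the antioxidant response, was called higher at both ages, with log2FC of 0.95 ± 0.18 in young (adjusted P = 0.00456) and 0.65 ± 0.17 in aged mice (adjusted P = 0.032). Esrrg, an orphan nuclear receptor, was called lower in aged mice (−0.61 ± 0.14, adjusted P = 0.0188). In aged mice the call of Nfe2l2 was lost without aged sham 1 or aged sham 2, and that of Esrrg without aged sham 3, without aged ICH 3 and with limma on FPKM. Ppargc1a, the coactivator PGC-1α, fell at both ages without meeting the FC criterion, by 0.34 ± 0.09 in young (adjusted P = 0.0195) and by 0.36 ± 0.09 in aged mice (adjusted P = 0.0201). The median of the 13 was 0.02 in young and 0.03 in aged mice. By the FC criterion 7.69% of the 13 were called in young and 15.4% in aged mice. Of all genes, 12.2% and 10.1% were called in either direction. At an adjusted P below 0.05 in edgeR, 1 rose and 2 fell in young mice, against 9.89% and 9.23% of all genes. In aged mice 2 rose and 2 fell, against 7% and 6.15% of all genes.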

How the data were processed

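RNA-seq of 12 pooled samples in 4 groups was used as deposited. The authors made libraries from total RNA, aligned paired reads to GRCm38 with HISAT2 and counted them per gene with featureCounts (Subread), and deposited raw read counts and FPKM for 54833 genes in 1 table. The counts are not normalized, and the deposited FPKM are scaled to transcript length and mapped fragments. Strand setting and the treatment of reads with several alignments are not given in the sources used here. All value columns could be assigned to samples (0 left over).

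Counts were fitted with edgeR 4.0.16 (quasi-likelihood test, R 4.3.3, limma 3.58.1), TMM normalization and filterByExpr with a minimum count of 10, on all genes and all 12 samples. DEGs had FC > 1.5 or < 0.67 and an unadjusted P below 0.05, and Benjamini-Hochberg values are over the 21495 genes tested. CPM use the TMM library sizes, and the SE was derived from the log2FC and its F statistic. The script was tested on simulated data. Nuclear copies were found by blastn 2.17.0+ among GENCODE vM21 transcripts (GRCm38), with at least 95% identity over at least 100 bases. Members and gene lists were chosen with earlier results of these data known. All mitochondrial genes could be named, and nuclear genes of the lists where they were called with an adjusted P below 0.05 (at most 3 per list and comparison), besides Polrmt, Tfam, Lrpprc and Ppargc1a, while copies needed 100 counts in a sample. Nuclear genes outside this rule are marked in the text. Alternatives were DESeq2 1.42.0, size factors (RLE), totals without mitochondrial genes, no filter, only the groups compared, a replicate block, limma on log2(FPKM + 0.1), other thresholds, each sample left out, and member and copy summed (chosen after seeing the data). No batch is given in the sources used here, and P measures the spread between pools.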

Additional observations from a re-analysis of the deposited data

Results flagged for a closer look

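The response of mt-Ty to ICH differed between the ages by −0.74 on the log2 scale in the test of the difference itself (edgeR, SE 0.28, unadjusted P = 0.0206, adjusted P = 1), which is why it is listed. The gene was higher in 3 of 3 young ICH samples than in all young sham samples, and lower in 1 of 3 aged ICH samples than in all aged sham samples, and the difference was no longer called without aged ICH 1. The differences of mt-Nd6 (−0.31, unadjusted P = 0.0166) and mt-Tc (−0.41, unadjusted P = 0.0206) were below the fold criterion, and both had an adjusted P of 1.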

How the results depend on the processing

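Of the mitochondrial genes called by FC and unadjusted P, 2, 2, 1, 2 and 1 in aged vs. young sham, young ICH, aged ICH, aged vs. young ICH and the difference of responses, the adjusted P with the FC criterion left 0, 1, 0, 0 and 0, and dropping the FC criterion gave 7, 15, 7, 4 and 3. In young ICH the count was 1 with RLE size factors, with DESeq2 and with copies summed, and 6 with limma on FPKM. DESeq2 gave 0 in aged ICH, and limma on FPKM gave 2 for the difference. Leaving out each sample gave 0 to 3, 0 to 6, 0 to 4, 1 to 3 and 0 to 2. At an adjusted P below 0.05, the 6 genes of young ICH became 2 with only the groups compared, 13 with DESeq2 and 1 to 6 with a sample left out, and the 2 genes of aged ICH became 1 with limma on FPKM, 5 with DESeq2 and 0 to 2 with a sample left out. DESeq2 gave 2 in aged vs. young ICH against 0. Of the calls, mt-Nd6 in young ICH (adjusted P) and mt-Tl2 in aged vs. young ICH (FC criterion) held in 20 of 20 alternatives. These kept the criterion of each call, and other thresholds are not counted in them. With the adjusted P in edgeR, mt-Tl2 was not called in aged vs. young ICH. For the nuclear lists, DESeq2 called 1 gene for the difference (Ndufa12) against 0. The difference in mitochondrial share was 0.28 in young and 0.16 in aged mice as a share of FPKM, in place of 0.39 and 0.26 for counts. With its copy summed, mt-Nd4l differed by −0.64 in place of −1.08 in young mice. No value of the share or of mt-Nd4l changed direction. The cause of these changes was not tested.

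The replicate numbers did not pair the samples (correlations of deviations between samples of 1 number from −0.454 to 0.235), and with the number as a replicate block the FC calls were 3, 2, 1, 2 and 1 and the genes at an adjusted P below 0.05 were 3 in young ICH and 1 in aged ICH. Over all genes, the calls with no filter were 1269 in place of 799 for aged vs. young sham, 1280 in place of 756 for aged vs. young ICH and 787 in place of 336 for the difference. Of the tRNA genes, 6 did not pass the filter on low counts and were not tested.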
